A study of Mus musculus with 4 samples.

Results

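The genes described here belong to transforming growth factor beta (TGF-beta) signalling and to the fibrotic matrix that this pathway builds. They were named by symbol and comprise the ligands Tgfb1 and Tgfb2, the receptors Tgfbr1 and Tgfbr2, the signal transducer Smad3, the transcription factor Zeb1, and the matrix genes Thbs1, Bgn and Loxl2. Of these 9 genes, 8 were found among the 10790 genes of the deposited table, and all 8 were among the 10696 genes whose mean reached 1 scaled read. Tgfbr2 was not analysed here. The animals were 4 days old, and their lenses were either wild type controls or Tdrd7 -/-. Tdrd7 encodes a Tudor-domain protein of RNA granules, and mice without it are called null below. Each genotype had 2 libraries, and each library came from a pool of 15 lenses, so a value is an average over many lenses. The sources used here do not give the strain, the sex or the design of the Tdrd7 allele.

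TGF-beta ligands are secreted in a latent form that the matrix stores. Once released, they bind a type II receptor that activates the type I receptor, which phosphorylates SMAD2 and SMAD3 so that these enter the nucleus and change transcription. In the lens this pathway is known for turning epithelial cells into matrix-producing, myofibroblast-like cells, as in posterior capsule opacification and anterior subcapsular cataract.

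The values are scaled reads, that is, read counts brought to a common library size by 1 factor each and not adjusted for the length of a gene. Read counts are the deposited values divided by the inferred step of each library, with 1 step taken as 1 read, and on that reading the libraries held 33920522 to 42767535 reads in the listed genes. Tdrd7 itself stood at 1188 and 972 scaled reads in control pools 1 and 2 and at 165 and 96.6 in null pools 1 and 2, which went with the labels in all 4 libraries. The tissue label was checked on markers of the lens fiber, and the fiber crystallin Cryaa stood at 125016 to 141976 scaled reads. Of the fiber markers 1 was called, the membrane protein gene Lim2 (ENSMUSG00000004613, one of the 2 entries under that symbol), which fell by 0.25 on the log2 scale (limma adjusted p = 0.0413). None of the 10 macrophage, 7 blood or 8 retina markers was among the genes analysed here. Genotypes were compared with limma over all genes, and a gene is said to be called, or to have risen or fallen, at an adjusted p under 0.05. In that fit 18.0% of the 10696 genes were called, 10.1% higher and 7.88% lower in null lenses. Called genes followed base composition, with a median transcript GC content of 42.6% among those called higher and 56.8% among those called lower, against 49.6% over all genes. A second fit, in which trends on GC content and transcript length were removed from every library, called 3.29% of 10656 genes, 2.06% higher and 1.24% lower.

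Of the 8 measured genes, 5 were called between the genotypes, against 18.0% of all genes tested. Bgn, Tgfb1 and Thbs1 fell in null lenses, Zeb1 and Loxl2 rose, and Tgfb2, Tgfbr1 and Smad3 did not pass. The median log2 fold change over the 8 genes was -0.03, against -0.005 over all genes tested, and the median of its absolute size was 0.25 against 0.13. The control and null libraries did not overlap in any of the 8 genes, where 61.5% of all tested genes showed no overlap in one direction or the other. The genes were chosen with earlier results of these data known, so these counts are descriptions. In the fit corrected for GC content and length, 3 of the 8 genes were called, namely Bgn, Zeb1 and Loxl2. That fit called 3.29% of all genes.

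**Figure D1:**
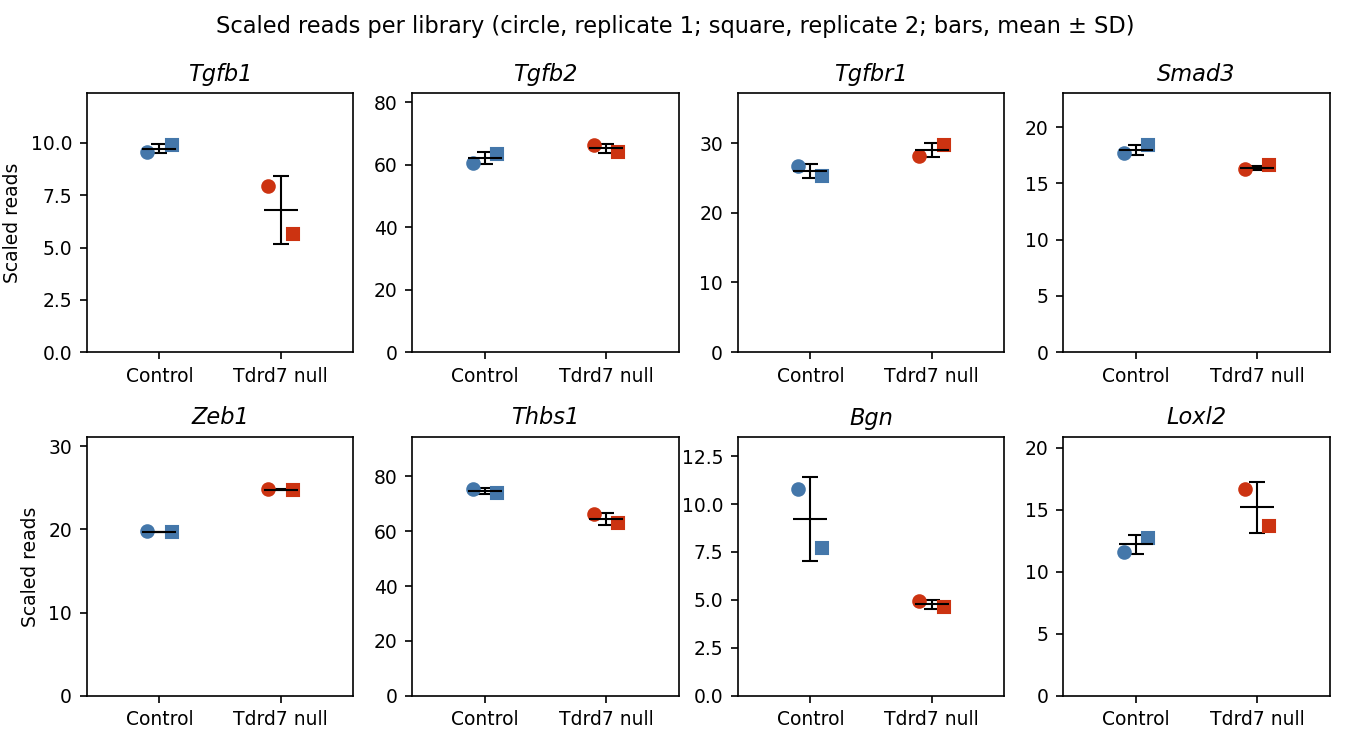
Scaled reads (vertical axes, each from 0) of the 8 measured genes in control (blue) and null (red) lenses, with circles for pool 1, squares for pool 2 and bars for mean ± SD (n = 2 pools). Bgn drops from 10.8 and 7.69 to 4.95 and 4.62, while the Zeb1 replicates of each genotype lie almost on top of each other. Those replicates lie closer together than the counting error of Zeb1, which was 3.27% to 3.49% per library.

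Of the ligands, Tgfb1 fell and Tgfb2 did not pass. Tgfb1 encodes the ligand best known for driving fibrosis, and Tgfb2 encodes a ligand abundant in the eye. Tgfb1 (ENSMUSG00000002603) lies on chromosome 7 from 25687002 to 25705077 in GRCm38. Its level was 9.58 and 9.89 scaled reads in control pools 1 and 2 and 7.93 and 5.63 in null pools 1 and 2. Both null pools were below both control pools, and they also differed more from each other than the controls did. The mean fell by 30.3%, from 9.73 ± 0.220 to 6.78 ± 1.62 (SD, n = 2), or -0.48 on the log2 scale (SE 0.119, limma adjusted p = 0.0168). The call for Tgfb1 was lost in the fit corrected for GC content and length, at a similar size of -0.43 (limma adjusted p = 0.0609). It was also lost without null pool 2, where the log2 fold change was -0.27 (limma adjusted p = 0.105), and without control pool 1 or 2, at -0.50 and -0.46 (limma adjusted p = 0.0947 and 0.119).

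Tgfb2 (ENSMUSG00000039239) lies on chromosome 1 from 186623186 to 186705992. It measured 60.6 and 63.3 scaled reads in control lenses and 66.2 and 64.1 in null lenses. All 4 values lay within a narrow band, with the null pools slightly above. The log2 fold change of 0.07 had a 95% interval from -0.05 to 0.19 and did not pass (limma adjusted p = 0.397). Tgfb2 shares 124 nt of exonic sequence with the antisense gene Gm29491, and the library kit does not mark strand.

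Per kb of transcript, Tgfb2 was the more abundant ligand transcript in every library. The ratio of Tgfb2 to Tgfb1, each in scaled reads per kb, was 3.18 and 3.22 in control and 4.20 and 5.73 in null pools 1 and 2. The mean ratio of control lenses was 3.20 ± 0.0264 and that of null lenses was 4.96 ± 1.08 (SD, n = 2). An exact permutation test gave p = 0.333 (two-sided), the smallest that 2 pools against 2 allow.

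Promoter windows were available for 5 of the 8 genes, and not all are shown. Those of the ligands, and of Bgn, which had the largest fold change of the 8 genes, are shown to compare their composition. They are RefSeq windows of GRCm38.p6 that run from 250 bases before to 50 bases after the annotated start, at chr7:25686752-25687051 (plus strand) for Tgfb1, chr1:186705940-186706239 (minus strand) for Tgfb2 and chrX:73483351-73483650 (plus strand) for Bgn. Each reads 5′ to 3′ along its gene. Capitals mark, on either strand, the SMAD-binding core CAGAC, the GC box GGGCGG and the TATA box TATAAA, with overlapping matches counted singly.
Tgfb1: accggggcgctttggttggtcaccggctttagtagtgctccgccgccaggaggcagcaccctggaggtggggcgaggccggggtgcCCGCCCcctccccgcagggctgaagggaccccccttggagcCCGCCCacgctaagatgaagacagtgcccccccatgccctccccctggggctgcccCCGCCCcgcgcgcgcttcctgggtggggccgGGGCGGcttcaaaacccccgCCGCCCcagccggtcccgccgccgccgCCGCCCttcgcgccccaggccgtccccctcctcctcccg
Tgfb2: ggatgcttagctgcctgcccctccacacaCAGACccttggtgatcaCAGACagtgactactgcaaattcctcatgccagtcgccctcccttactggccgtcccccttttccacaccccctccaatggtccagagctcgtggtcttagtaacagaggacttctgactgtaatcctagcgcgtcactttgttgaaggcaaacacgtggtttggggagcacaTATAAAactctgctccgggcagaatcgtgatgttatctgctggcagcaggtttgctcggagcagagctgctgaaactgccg
Bgn: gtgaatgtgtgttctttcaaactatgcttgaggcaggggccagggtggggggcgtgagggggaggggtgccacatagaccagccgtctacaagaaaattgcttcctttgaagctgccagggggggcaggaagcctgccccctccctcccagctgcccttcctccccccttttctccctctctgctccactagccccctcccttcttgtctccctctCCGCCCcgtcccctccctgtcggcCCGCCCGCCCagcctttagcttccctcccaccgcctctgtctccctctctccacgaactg
The Tgfb1 window was 77.0% GC and held 6 GC boxes, and the Bgn window was 63.7% GC and held 3. Neither had a match to the SMAD-binding core or the TATA box. The Tgfb2 window was 54.3% GC, with 2 matches to the SMAD-binding core, a TATA box that begins at -31 relative to the start, and 0 GC boxes. Over all 32851 windows of this length, 49.6% held CAGAC, 35.7% held GGGCGG and 13.6% held TATAAA. A match describes the letters in the window and is not a measured binding site.

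The type I receptor and SMAD3, which carry the signal into the cell, did not pass. Tgfbr1 (ENSMUSG00000007613), which encodes that receptor, lies on chromosome 4 from 47353222 to 47414931, and it starts 1318 kb beyond the end of Tdrd7. Its level was 26.7 and 25.3 scaled reads in control and 28.2 and 29.7 in null pools 1 and 2. The null pools were the higher ones by a small margin. The log2 fold change of 0.15 had a 95% interval from 0.01 to 0.29 and did not pass once adjusted over all genes (limma adjusted p = 0.124). The Tgfbr1 transcript has a GC content of 41.0%, the lowest of the 8, and the fit corrected for GC content and length gave a log2 fold change of 0.01 (SE 0.0567).

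Smad3 (ENSMUSG00000032402) lies on chromosome 9 from 63646767 to 63757994. It stood at 17.7 and 18.4 scaled reads in control and at 16.3 and 16.6 in null lenses. The null pools lay just under the controls. The log2 fold change was -0.13 with a 95% interval from -0.28 to 0.02 (limma adjusted p = 0.218). Smad3 has a GC content of 53.1%, the highest of the 8, and the corrected log2 fold change was -0.02 (SE 0.0654).

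**Figure D2:**
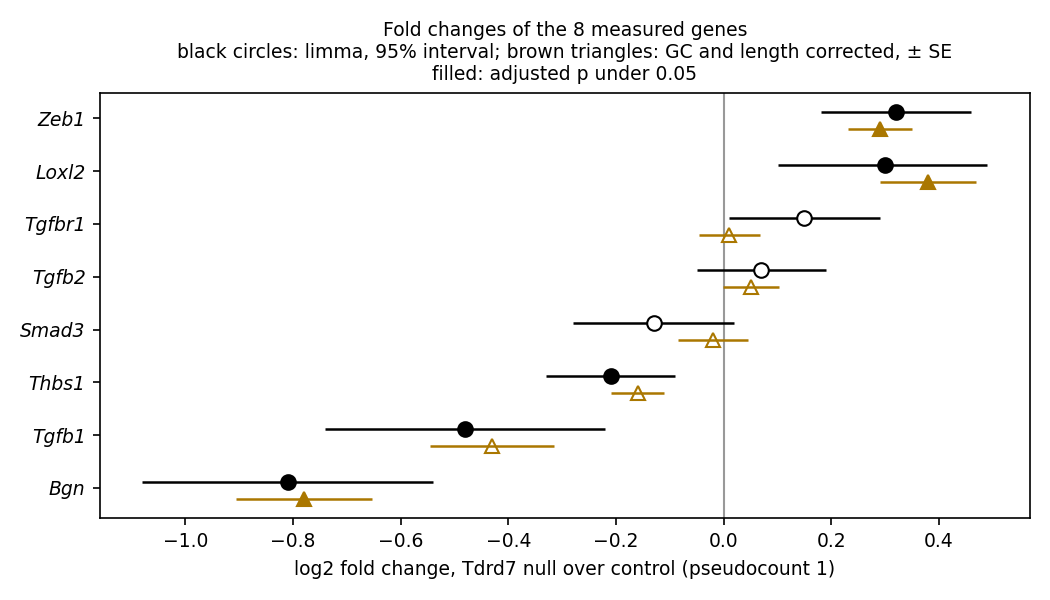
Log2 fold changes of null over control (horizontal axis) for the 8 measured genes, with black circles and 95% intervals from the limma fit and brown triangles ± SE from the fit corrected for GC content and length. Filled symbols passed at an adjusted p under 0.05, which holds for Bgn, Zeb1 and Loxl2 in both fits and for Tgfb1 and Thbs1 before the correction only, while Tgfbr1 goes from 0.15 to 0.01 and Smad3 from -0.13 to -0.02.

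Zeb1, which encodes a zinc finger repressor of epithelial genes that acts in epithelial to mesenchymal transition, rose with the tightest replicates of the group. Zeb1 (ENSMUSG00000024238) lies on chromosome 18 from 5591860 to 5775467. Its level was 19.8 and 19.7 scaled reads in control pools 1 and 2 and 24.9 and 24.8 in null pools 1 and 2. The gap between genotypes was far wider than the gap between the pools of either genotype. The counting error alone was 3.27% to 3.49% per library, wider than the gap between the pools. The closeness of the pools is therefore not a measure of precision. The mean was 25.8% higher in null lenses, which is 0.32 on the log2 scale (SE 0.0641, limma adjusted p = 0.00641). The corrected fit called it too, at 0.29 (limma adjusted p = 0.0209). The call was lost without control pool 1 or 2, at an unmoved 0.32 (limma adjusted p = 0.0560 and 0.0534). Zeb1 shares 198 nt with Gm10125 on the opposite strand.

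The genes of the extracellular matrix moved in both directions. Bgn encodes biglycan, a small leucine-rich proteoglycan that binds collagen and TGF-beta. Bgn (ENSMUSG00000031375) lies on chromosome X from 73483602 to 73495933. Its level was 10.8 and 7.69 scaled reads in control pools 1 and 2 and 4.95 and 4.62 in null pools 1 and 2. The control pools lay apart from each other, and both were above the null pools. These values rest on 447 and 325 reads in control and 186 and 164 in null lenses, whose counting error alone is 4.73% to 7.81%. The mean fell by 48.2%, from 9.23 ± 2.19 to 4.78 ± 0.233 (SD, n = 2), or -0.81 on the log2 scale (SE 0.125, limma adjusted p = 0.00207). The corrected fit gave -0.78 (limma adjusted p = 0.00704). Without control pool 1 the log2 fold change of Bgn was -0.59 and without control pool 2 it was -1.03, and both passed. A pseudocount of 5 in place of 1 brought it to -0.53, which also passed. With a prior that ignores intensity the adjusted p was 0.0510 in limma.

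Thbs1 encodes thrombospondin 1, a secreted glycoprotein that can release TGF-beta from its latent complex and is itself induced by TGF-beta. Thbs1 (ENSMUSG00000040152) lies on chromosome 2 from 118111876 to 118127133. Its level was 75.5 and 74.0 scaled reads in control and 66.1 and 62.9 in null pools 1 and 2, on 2234 to 3130 reads. The replicates of each genotype were close, and the genotypes did not overlap. The mean fell by 13.7%, which is -0.21 on the log2 scale (SE 0.0548, limma adjusted p = 0.0206). The call was lost in the corrected fit, at -0.16 (limma adjusted p = 0.0974), and without control pool 1, control pool 2 or null pool 2, at -0.20, -0.22 and -0.18. Thbs1 shares 208 nt with Gm29233 on the opposite strand.

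Loxl2 encodes a lysyl oxidase that crosslinks collagen. Loxl2 (ENSMUSG00000034205) lies on chromosome 14 from 69609171 to 69695833. Its level was 11.6 and 12.7 scaled reads in control and 16.7 and 13.7 in null pools 1 and 2. null pool 1 stood highest, and null pool 2 was only a little above control pool 2. The mean was 25.1% higher, which is 0.30 on the log2 scale (SE 0.0915, limma adjusted p = 0.0410). The corrected fit called it at 0.38 (limma adjusted p = 0.0366). The call was lost without null pool 1, at 0.17 (limma adjusted p = 0.238), without control pool 1 or 2, at 0.24 and 0.35, and under upper-quartile scaling or scaling to the total without the crystallins, at 0.27 and 0.26. Loxl2 shares 301 nt with the antisense gene Gm27177.

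**Figure D3:**
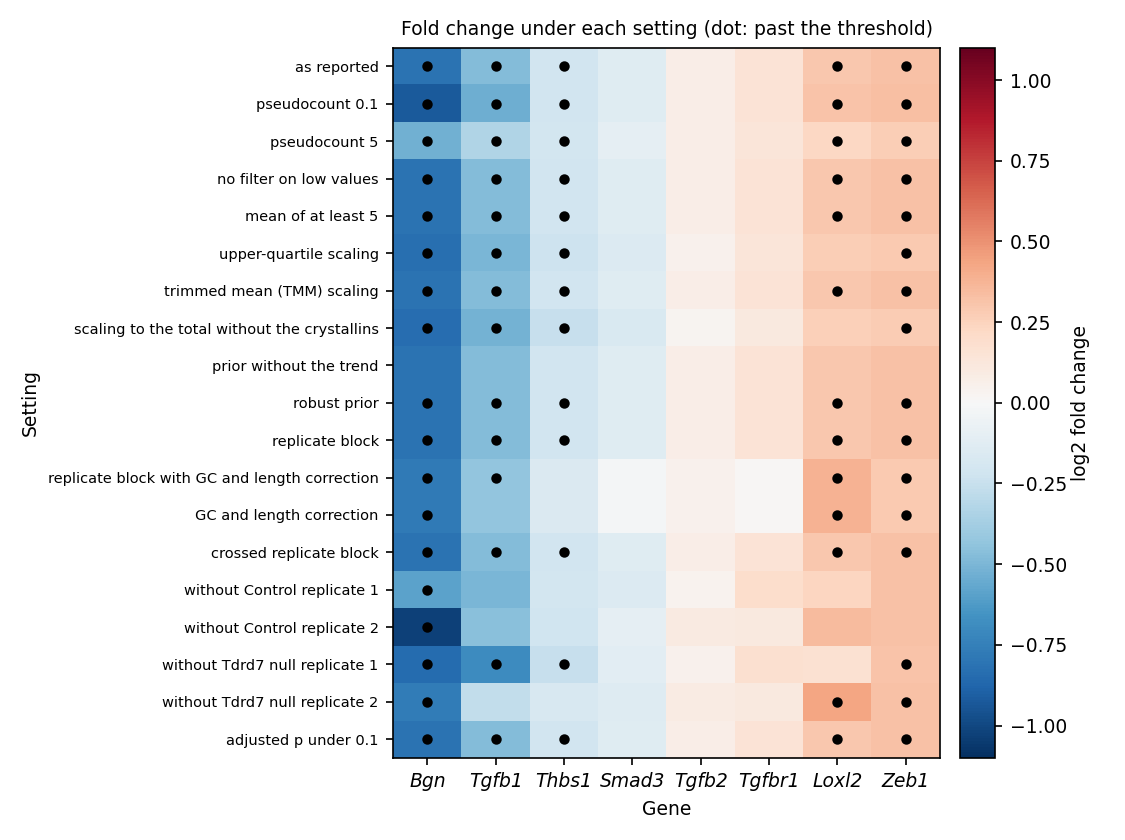
Log2 fold change (colour; red, higher in null) of each of the 8 genes (columns) under the reported fit and 18 alternatives (rows), with a dot where the gene passed the threshold. No gene changes direction in any row, Bgn keeps its dot in 17 of 18 alternatives and Zeb1 in 15, and Smad3, Tgfb2 and Tgfbr1 have none. The rows are not independent checks. The row at an adjusted p under 0.1 repeats the reported fit, and the trimmed mean (TMM) row nearly does. The crossed block was chosen after seeing the data. Only rows with another scaling or with the GC and length correction could have reversed a direction.

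Across genes, levels were compared in scaled reads per kb of the longest transcript. In control lenses Thbs1 (12.8) and Tgfb2 (12.1) stood highest, followed by Tgfbr1 (4.52), Tgfb1 (3.78), Smad3 (3.54), Bgn (3.46), Zeb1 (3.40) and Loxl2 (2.29). The median of all genes was 3.33 over the 4 libraries, so 6 of the 8 transcripts were of ordinary abundance. Thbs1 and Tgfb2 were not separated, since Thbs1 was above Tgfb2 in both control pools and below it in both null pools. Tgfb1, Smad3, Bgn and Zeb1 also overlapped over the 4 libraries. The steps from Tgfb2 to Tgfbr1, from Tgfbr1 to Tgfb1 and from Zeb1 to Loxl2 held in all 4 libraries with no overlap. In null lenses Zeb1 (4.28 per kb) lay above Tgfb1 (2.63) and Bgn (1.79), and Bgn was the lowest of the 8.

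**Figure D4:**
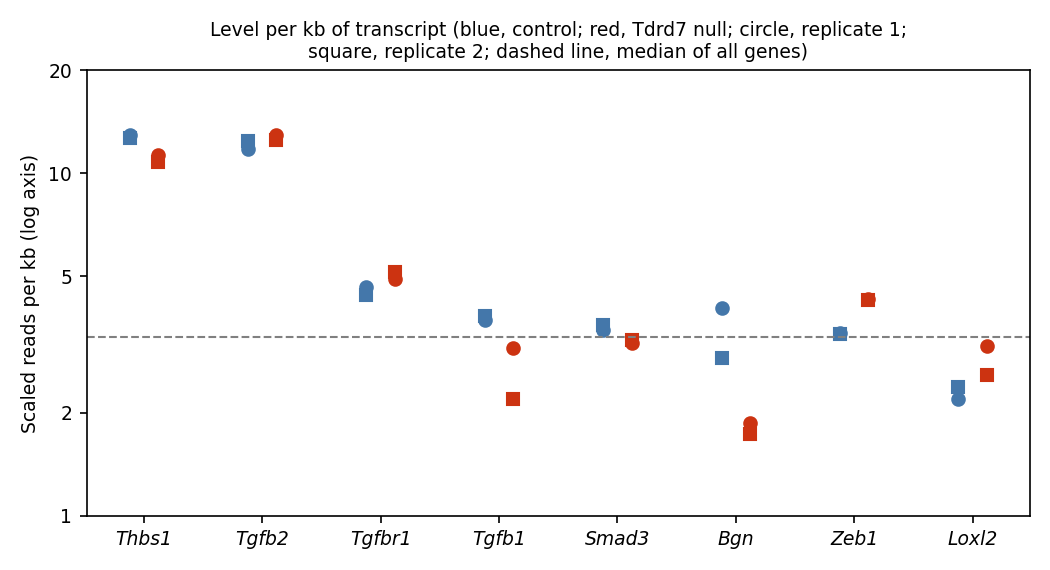
Scaled reads per kb of longest transcript (vertical log axis) of the 8 genes in each control (blue) and null (red) library, with circles for pool 1, squares for pool 2 and a dashed line at 3.33, the median of all genes. Thbs1 and Tgfb2 stand well above the rest, and Tgfb1 lies above the line in both control libraries and under it in both null libraries.

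The genes whose pattern was nearest to each called gene were found by the root mean square distance between centred log2 values over the 4 libraries, a likeness that any gene with the same genotype difference can reach. For Bgn they were Fam189a2 (0.0935), Cckbr (0.102) and Avp (0.110). For Tgfb1 they were Rpl38 (0.0369), Pabpn1 (0.0387) and Npr2 (0.0389). For Thbs1 they were Rela, Adrbk1 and Nisch, at distances of 0.00692 to 0.00712. For Loxl2 they were Hip1r, Nup210l and Pdcl, at 0.0279 to 0.0284. Zeb1 was nearest to Bnip3l (0.00469), Cald1 (0.00600) and Htatsf1 (0.00661), and Cald1, which encodes the actin-binding protein caldesmon, is also on the list of epithelial to mesenchymal transition genes described below.

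The rest of the pathway was read from 8 lists that hold 160 distinct genes, of which 107 were tested. Over these, 10 were called higher and 9 lower, which is 17.8% and close to the 18.0% of all tested genes. Among the 8 tested ligands of the TGF-beta superfamily 0 rose and 1 fell, which was Tgfb1, and the median log2 fold change was -0.15. Bmp7, a bone morphogenetic protein needed for early lens development, was second in level per kb after Tgfb2 and stood at -0.16 (limma adjusted p = 0.115). In the corrected fit the median of the ligands was -0.02, and Inhba, which encodes an activin subunit, was called lower at -0.42 (limma adjusted p = 0.0363) while Tgfb1 was not called. The call of Tgfb1, and with it the only one of the list, was lost without control pool 1, control pool 2 or null pool 2.

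Of the 11 tested receptors, 0 were called by limma, against 18.0% of all genes. An unadjusted p under 0.05 in limma was reached by 2 of them and by 3538 of all 10696 genes tested. The median of the receptors was 0.06. Bmpr1a, a type I receptor for bone morphogenetic proteins and the most abundant receptor per kb, stood at 57.2 ± 2.16 scaled reads in control and 63.0 ± 1.80 in null lenses (log2 fold change 0.14, limma adjusted p = 0.108). Acvr1b, a type I activin receptor, stood at -0.11 (limma adjusted p = 0.267).

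Among the 26 SMADs and their regulators 4 rose and 0 fell (15.4%, against 18.0% of all genes), and the median was -0.01. Among the SMAD genes, the common partner Smad4 stood at 32.3 to 32.4 scaled reads in the 4 libraries and the inhibitory Smad6 at -0.24 (limma adjusted p = 0.0768), both chosen after their values were seen. The 4 were Zfyve16, an endosomal SMAD anchor protein (0.36), the adaptor Tab2 (0.20), the kinase Map3k7 (0.20) and Strap (0.22), a WD-repeat inhibitor of TGF-beta receptor signalling. Tab2 alone of the 26 was called in the corrected fit, at 0.21. The 4 calls became 1 without control pool 1 or null pool 2 and were all lost without control pool 2, and scaling to the total without the crystallins gave 3 higher and 2 lower.

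Of the 19 tested genes that store, activate or inhibit the ligands 0 rose and 4 fell (21.1%, against 18.0% of all genes). The median was -0.16. Besides Bgn and Thbs1, the convertase Furin, which cleaves TGF-beta precursors, fell from 33.4 ± 1.43 to 25.5 ± 1.04 scaled reads, or -0.38 on the log2 scale (limma adjusted p = 0.00311), and Fbn2, a fibrillin of the microfibrils that hold latent TGF-beta, fell by 0.45 on the log2 scale. The most abundant members per kb, Fstl1 and Itgb5, stood at 0.07 and -0.16 and did not pass. In the corrected fit the median was -0.04 and Bgn alone was called, with Furin at -0.21 (limma adjusted p = 0.0717) and Fbn2 at -0.34 (limma adjusted p = 0.191). The number called lower was 2 without either control pool and 7 without null pool 1.

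Of the 16 tested TGF-beta and bone morphogenetic protein target genes 0 rose and 1 fell, which was Thbs1 (6.25%, against 18.0% of all genes). An unadjusted p under 0.05 in limma was reached by 4 of them and by 3538 of all 10696 genes tested. The median was -0.02. The negative feedback gene Smad7 (-0.17) and Ctgf (0.11), which encodes a matricellular growth factor, did not pass, and they were chosen after their values were seen. The most abundant targets per kb, Id2 (0.12) and Tsc22d1 (0.05), did not pass in that fit, and Tsc22d1 was called higher in the corrected fit at 0.24 (limma adjusted p = 0.0119). The call of Thbs1 was lost without control pool 1, control pool 2 or null pool 2, and 1 target was called higher and 2 lower without null pool 1.

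Of the 12 tested epithelial to mesenchymal transition genes 3 rose and 0 fell, with a median of 0.04. Besides Zeb1, these were Cald1, from 229 ± 0.261 to 288 ± 1.18 scaled reads (0.33), and S100a4, a calcium-binding protein used as a fibroblast marker, from 76.3 ± 7.74 to 97.8 ± 1.68 (0.36). The counting error of Cald1 was 0.959% to 1.03% per library, wider than its SDs. The myofibroblast marker Acta2, chosen after its values were seen, stood at 22.2 and 32.2 in control and 33.8 and 22.9 in null pools 1 and 2, with groups that overlapped. Vim, the intermediate filament vimentin, was the most abundant of the list per kb and stood at -0.17 (limma adjusted p = 0.0781). In the corrected fit 2 rose, Zeb1 and Cald1, and 1 fell, which was Vim at -0.24 (limma adjusted p = 0.0472). The 3 calls became 1 without control pool 1, and upper-quartile scaling and scaling without the crystallins each added 1 lower call.

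Of the 10 tested fibrosis matrix genes 0 rose and 3 fell, with a median of 0.03. They were Bgn and the metalloproteinase inhibitors Timp2 (-0.21) and Timp3 (-0.30). The collagen-binding glycoprotein Sparc, the most abundant of the list per kb, stood at 0.09 and did not pass. In the corrected fit the median was 0.13, Bgn and Timp3 (-0.32) were called lower and the collagen gene Col6a3 (0.27) was called higher. The 3 calls became 1 without control pool 1, control pool 2 or null pool 2. Of the 22 genes listed, 12 were not analysed here.

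Of the 13 tested enzymes that process and crosslink collagen 3 rose and 2 fell (38.5%, against 18.0% of all genes). The median was 0.04. Besides Loxl2, the prolyl hydroxylase subunit P4ha1 rose from 136 ± 9.10 to 178 ± 9.42 (0.38 on the log2 scale, limma adjusted p = 0.00218) and the lysyl hydroxylase Plod2 rose by 0.23. Loxl1, a relative of Loxl2 known for crosslinking elastin, fell by 0.24 on the log2 scale, and the procollagen proteinase Bmp1 fell by 0.25. The collagen chaperone Serpinh1, the most abundant of the list per kb, stood at 0.01. With the correction Loxl2 and P4ha1 (0.33) were called, and Plod2, Loxl1 and Bmp1 stood at 0.11, -0.01 and -0.07. The 5 calls became 1 without either control pool and 3 without null pool 1, and scaling without the crystallins gave 1 higher and 2 lower.

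**Figure D5:**
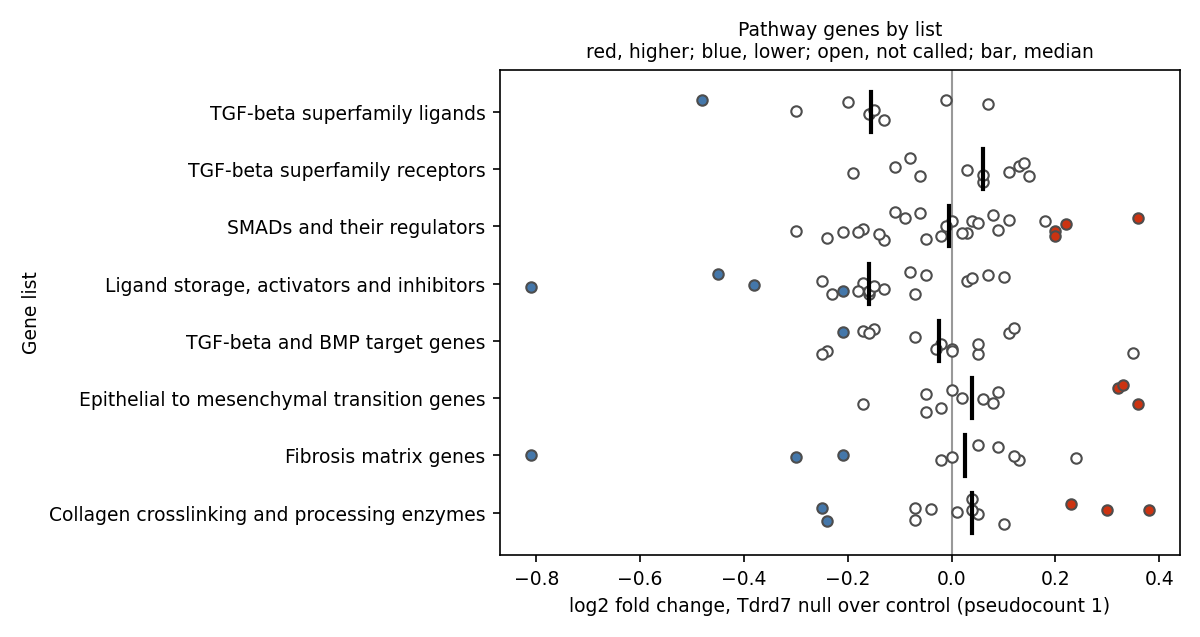
Log2 fold change of null over control (horizontal axis) for every tested gene of the 8 pathway lists (rows), with red for genes called higher, blue for genes called lower, open circles for genes not called and a black bar for the list's median. The list medians lie between -0.16 and 0.06, and the leftmost point, Bgn at -0.81, appears in the rows on ligand storage and on fibrosis matrix.

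Markers of other cells were read beside these genes. The summed level of the 5 pericyte markers measured was 48.8 and 38.8 scaled reads in control and 33.7 and 36.8 in null pools 1 and 2. Notch3 was the largest part of it, at 27.1 and 22.6 in control and 16.5 and 18.0 in null pools 1 and 2. Both null sums lay below both control sums, as for Tgfb1, Smad3, Thbs1 and Bgn. Of all tested genes, 61.5% also showed no overlap in one direction or the other. Notch3 (-0.50) and Pdgfrb (-0.34) fell. The others, Rgs5 (0.35), Abcc9 (0.13) and Anpep (-0.05), did not pass, and the median of the 5 was -0.05. With the correction for GC content and length Notch3 stood at -0.25 and Pdgfrb at -0.19, and neither passed. Of the 6 measured ciliary body and iris markers, Mfap2 (-0.29) and Mfap4 (-0.21) fell and Cp (0.24) rose, calls that the correction ended at -0.17, -0.16 and 0.11, with sums of 287 and 297 in control and 308 and 301 in null lenses. The 7 measured endothelial markers summed to 20.5 and 11.7 in control and 14.8 and 21.5 in null lenses, an order that split the replicates of each genotype. The fibroblast markers Col1a1, Col3a1, Dcn and Lum were not among the genes analysed here. The 2 that were, Pdgfra and Col1a2, summed to 83.0 and 85.1 in control and 90.6 and 89.5 in null lenses. Nearly all of this sum was Pdgfra, at 81.3 and 83.0 in control and 88.0 and 87.1 in null lenses. Neither gene was called. Among 6 lens epithelium markers Gja1 (0.33) rose and Foxe3 (-0.43) fell, neither passed with the correction (0.20 and -0.13), and the sums were 299 and 317 in control and 317 and 311 in null lenses. Their part in the values of the 8 genes was not tested. In pooled lenses, fewer cells of a type and less RNA per cell cannot be told apart.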

How the data were processed

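RNA of 4 lens pools was depleted of small RNA, selected for polyadenylation and made into TruSeq libraries, per the series' design text, with a kit that does not mark strand. Per the submitters' processing notes, the authors' tools include TopHat2 2.0.9, Trimmomatic, Cuffnorm and Cufflinks, and the build is GRCm38. For the tool that counted reads, a name is not given in those sources. Deposited signal values of 10790 genes lay within 0.001 of whole multiples of 1 step per library, from 0.0237 to 0.0282 scaled reads, and the authors' scaling differed by at most 0.00194% from a trimmed mean (TMM) scaling of those multiples.

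The analysis ran on log2(scaled reads + 1), over genes whose mean reached 1, in limma 3.58.1 in R 4.3.3 (no block, intensity-trended prior, two-sided, Benjamini-Hochberg over all genes). A fold change on this scale understates the change of low genes. The fit had 2 residual degrees of freedom and a prior worth 11.1 more. Each gene's longest GENCODE M21 transcript gave its GC content and length (known for 10750 genes), and the correction used natural splines with 5 degrees of freedom each. The fit was tested on simulated data, where it recovered 42% of 1.25-fold, 80% of 1.5-fold and 97.9% of 2-fold changes. Of the simulated calls, 5.95% were false. The simulation gave all genes the same dispersion and held no GC trend, unlike these libraries. Count tests planned on recovered reads were not run.

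The genes and lists were chosen with earlier results of these data known. Genes were named by a rule that took Tdrd7 and the 9 genes, up to 4 called genes by smallest p and the 2 highest per kb of each list, up to 3 markers per cell type by highest mean (not all are printed), and the 3 genes nearest to each called gene. Outside that rule, and chosen after their values were seen, are the other called markers, Abcc9, Anpep, Smad4, Smad6, Smad7, Ctgf, Acta2 and the genes called only in the corrected fit (Inhba, Col6a3).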

Additional observations from a re-analysis of the deposited data

How the results depend on the processing

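Over 18 alternatives, the log2 fold change of each of the 8 genes kept its direction (144 values). Of these values, 21 lost a call that the reported fit made. Most of the alternatives could not have reversed a direction. The groups did not overlap in any of the 8 genes, so neither a left-out library nor another pseudocount could do so. Blocks, priors, filters and thresholds left the fold change as it was. Only another scaling or the GC and length correction could have reversed one. A prior that ignores intensity also ended every call of the 8 pathway lists. The 5 calls among the 8 genes became 0 with a prior that ignores intensity and 3 with the GC and length correction. Leaving out each library gave 1 to 4 calls among them, with 1 without either control library. Of all genes tested, 1920 were called, 16 without the intensity trend, 351 with the GC and length correction and 431 to 2196 when each library was left out (431 and 518 without control pools 1 and 2, 911 without null pool 2). The correction and the reported fit shared 300 calls. The split of 1077 higher and 843 lower became 869 and 1072 under upper-quartile scaling and 766 and 1262 when scaled to the total without the crystallins.

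Same-numbered libraries deviated from their group means with a correlation of -0.151 across genes. With 2 pools per genotype this is a single contrast, so it cannot show whether the libraries were prepared in pairs. The sample labels do not say so either, and the reported fit used no block. With the replicate number as a block 2117 genes and 5 of the 8 were called, and 583 and 4 with the block and the GC and length correction together. A crossed pairing, chosen after seeing the data, called 3036 genes. The edgeR and DESeq2 alternatives were not run, since the lowest values were 5 to 21 steps and the identity of 1 step with 1 read was inferred. The limit of depth is clearest for Bgn and Tgfb1, which rest on 164 to 447 reads per library. With 2 pools per genotype, the test relies on spread borrowed across genes.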
